A study of Homo sapiens with 9 samples.

Results

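AC16 cells that had grown for 72 h with 100 nM CDDO-Me were compared with AC16 cells grown for the same 72 h with the vehicle, 0.1% DMSO. The comparison took 6 of the 9 RNA-seq libraries of the series, 3 per group, and covered every gene in the count table. The other 3 libraries came from cells given 100 nM CDDO-Me for 24 h, which had no vehicle group of their own time here. Both groups are of AC16, an established human line that still divides and that arose from a fusion of adult ventricular heart cells with fibroblasts transformed by SV40. The treatment label reads CDDO-Me for every treated sample, although the titles and the design text write CDDO in places. Nothing in the labels tells whether the 3 replicates of a group were grown separately, and the spread that the p-values rest on may therefore be technical.

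CDDO-Me, also called bardoxolone methyl, belongs to the synthetic triterpenoids and reacts with cysteines of KEAP1, the adaptor that sends the transcription factor NRF2 to degradation. Freed NRF2 pairs with small MAF proteins at antioxidant response elements and switches on genes of glutathione and thioredoxin metabolism, NADPH supply, iron handling and drug detoxification. Many genes described below are outside the list of NRF2 targets used here. Among them are genes of the matrix that stromal cells secrete and of the latent TGF-beta system that matrix stores. Others belong to contractile programmes driven by serum response factor (SRF) with its coactivator myocardin. Further ones belong to signalling by retinoic acid, a ligand of the RAR and RXR nuclear receptors.

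Stretches of 5 gene starts are shown because the genes next to them carry results below and because their letters hold a known element; capitals mark each match to the element. They come from the RefSeq promoter table (GRCh38.p14), run 5′ to 3′ on the strand of the gene and end at the base before the gene start. RARB (plus strand, chr3:25428153-25428262) holds a retinoic acid response element, searched as the half-sites GTTCA and AGTTCA with 5 bases between them. ACTG2 (plus strand, chr2:73892898-73893007), MYLK (minus strand, chr3:123620549-123620658) and CNN2 (plus strand, chr19:1026498-1026607) hold CArG boxes, the element that SRF binds, 2 of them in ACTG2. MT2A (plus strand, chr16:56608334-56608583) holds 7 metal response element cores, TGCACNC or TGCGCNC on either strand.
RARB: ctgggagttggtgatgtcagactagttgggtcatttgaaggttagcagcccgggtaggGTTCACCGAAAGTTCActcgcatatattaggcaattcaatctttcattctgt
ACTG2: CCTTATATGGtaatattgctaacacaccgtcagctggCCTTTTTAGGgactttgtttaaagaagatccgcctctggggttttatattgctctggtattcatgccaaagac
MYLK: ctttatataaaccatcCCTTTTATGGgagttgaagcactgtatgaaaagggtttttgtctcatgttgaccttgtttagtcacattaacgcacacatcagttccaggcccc
CNN2: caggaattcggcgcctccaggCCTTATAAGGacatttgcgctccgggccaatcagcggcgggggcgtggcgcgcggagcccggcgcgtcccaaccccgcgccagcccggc
MT2A: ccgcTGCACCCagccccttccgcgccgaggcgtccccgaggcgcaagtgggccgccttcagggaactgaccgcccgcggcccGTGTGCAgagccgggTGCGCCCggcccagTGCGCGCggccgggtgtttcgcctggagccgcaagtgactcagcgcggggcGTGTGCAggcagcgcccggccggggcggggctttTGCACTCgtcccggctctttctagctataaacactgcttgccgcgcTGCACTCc

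The 250 bases before the gene start were searched on both strands in all 27305 promoters of the table, of which 10811 matched a tested gene by symbol. The retinoic acid response element was in 9 of the 27305 (0.033%), and RARB was 1 of 3 tested genes that held it. CArG boxes were in 1.14% of all promoters and 0.98% of those of tested genes. They were in 2.2% of those of genes called lower and 4.49% (4 of 89) of those called lower by at least 2-fold. These calls are defined with the results below. The 4 genes were ACTG2, NR2F1, C12orf75-AS1 and LINC01444, and MYLK and CNN2 were not among them. Metal response element cores were in 24.7% of all promoters, and 9 promoters (0.033%) held 7 or more, MT2A among them. The core of the antioxidant response element, TGACNNNGC, was in 11% of all promoters, 12.2% of those of tested genes, 19.5% (8 of 41) of those of genes called higher on the list of NRF2 targets, 12.7% (78 of 615) of those of genes called higher outside it and 11.7% of those of genes called lower. In the MT2A window such a core overlaps a TGACTCA match to the AP-1 element. A match describes letters in this window and is not a measured binding site.

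Total read counts were 19382833 to 20570568 in the DMSO libraries and 18801683 to 20704953 in the CDDO-Me libraries. Between pairs of CDDO-Me libraries the biological coefficient of variation was 2.72% to 3.31%. In the DMSO group it was 7.76% between replicates 2 and 3, and 12.1% and 13.8% for the pairs with replicate 1, which stands apart. Several genes show this library high (FN1, ACTG2, TAGLN) or low (EGR1, MYC), and such values are given beside the results they touch. The list of nuclear-retained and histone RNAs, kept as a sign of RNA quality, had library medians of 0.32, −0.03 and −0.13 in DMSO replicates 1, 2 and 3 and −0.10, −0.49 and −0.48 in CDDO-Me replicates 1, 2 and 3, as log2(CPM + 0.5) relative to the DMSO mean. The 2 groups overlapped on this measure only in that CDDO-Me replicate 1 lay just above DMSO replicate 3. The median log2 fold change of its 7 tested members was −0.59, with 1 called higher and 0 lower. The part of RNA quality in the results below was not tested. CPM stands for counts per 1000000 counts of a library, after TMM normalization.

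As a check of the labels, NQO1, the quinone reductase gene that NRF2 is best known for, stood at 432, 417 and 494 CPM in DMSO and 3367, 3286 and 3333 CPM after CDDO-Me. HMOX1, heme oxygenase 1, stood at 22.1, 23.4 and 25.7 CPM and 817, 743 and 875 CPM. Each treated library lay far above each DMSO library for both genes.

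Of 14534 tested genes, 1776 (12.2%) were called at an adjusted p under 0.05 in edgeR's quasi-likelihood test. They split into 835 higher (5.75%) and 941 lower (6.47%) after CDDO-Me, around a median log2 fold change of −0.003 over all tested genes. Changes of at least 2-fold made up 144 of the higher calls (0.991% of tested genes) and 136 of the lower calls (0.936%), and 1172 called genes changed by less than 1.5-fold. The values of the 2 groups did not overlap for 1771 of the called genes, against 4521 of all tested genes (31.1%). The list of known NRF2 targets used here made up a small share of this. Of its 63 tested members 51 were called higher and 0 lower (median log2 fold change 1.00). That leaves 1725 called genes outside the list, 784 of them higher. The list holds 74 chosen genes, and whether genes outside it are NRF2 targets was not tested. At 2-fold or more, 31 higher genes were on the NRF2 list and 113 were not. Counts depended on which library was left out. Higher and lower calls numbered 425 and 485 without CDDO-Me replicate 1, 479 and 477 without replicate 2, and 410 and 461 without replicate 3. Without DMSO replicate 1 they numbered 1383 and 1423. The 2-fold counts moved less, from 117 to 162 higher and from 99 to 161 lower over all leave-outs.

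**Figure D1:**
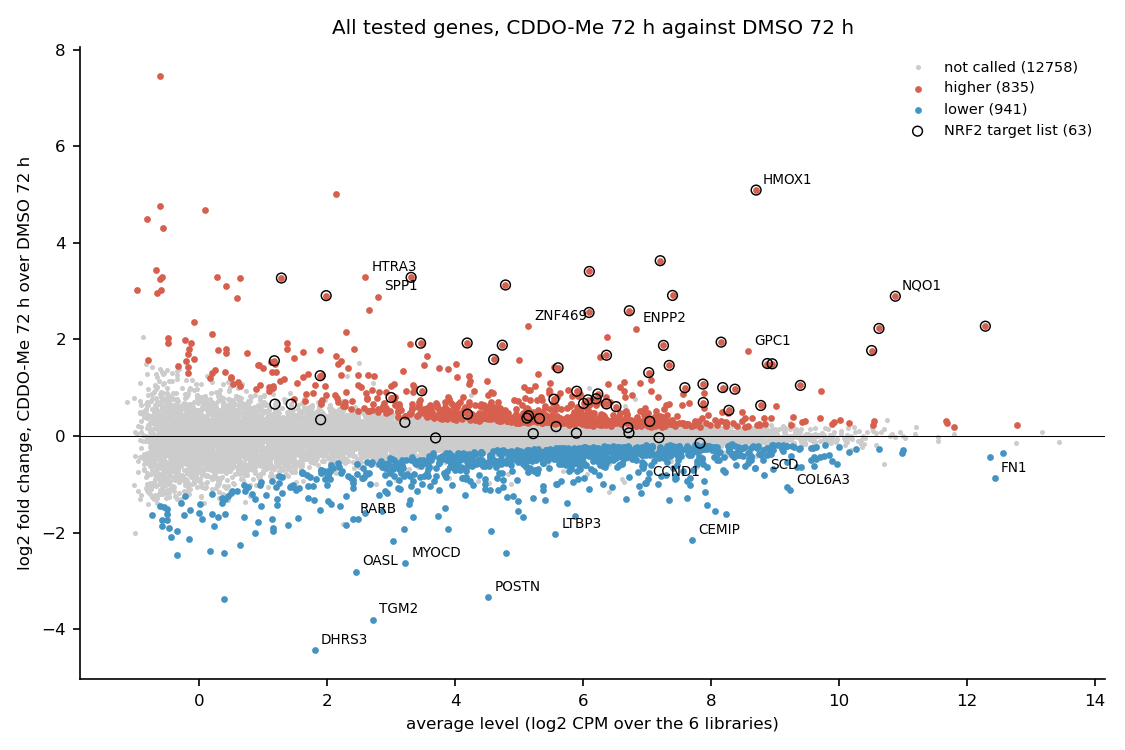
Log2 fold change (CDDO-Me 72 h over DMSO 72 h) against the average level in log2 CPM for each of the 14534 tested genes; red points were called higher (835), blue points lower (941), grey points were not called and open circles mark the 63 tested NRF2 targets. The NRF2 targets fill much of the upper right, and the single genes POSTN, TGM2, DHRS3 and MYOCD lie at the bottom. The fold of a gene with a group at 0, as for the topmost point, depends on the prior count of the fit.

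Across 44 functional lists, most lists outside the NRF2 list that held many called genes held mainly lower ones. Lower calls took 16 of 32 matrix glycoprotein genes, 8 of 16 smooth muscle contractile genes, 14 of 30 receptor kinase and growth factor genes, 11 of 24 matrix protease genes and 7 of 17 collagen processing genes. Higher calls took 9 of 24 p53 targets and cell cycle inhibitors, 7 of 30 proteasome subunits, 5 of 30 oxidative phosphorylation subunits and 5 of 23 genes of superoxide and peroxide removal. These lists share some members and were chosen with earlier results of these data known, so their counts are a description and not a test. In bulk RNA, fewer cells of a type and less RNA per cell cannot be told apart.

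**Figure D2:**
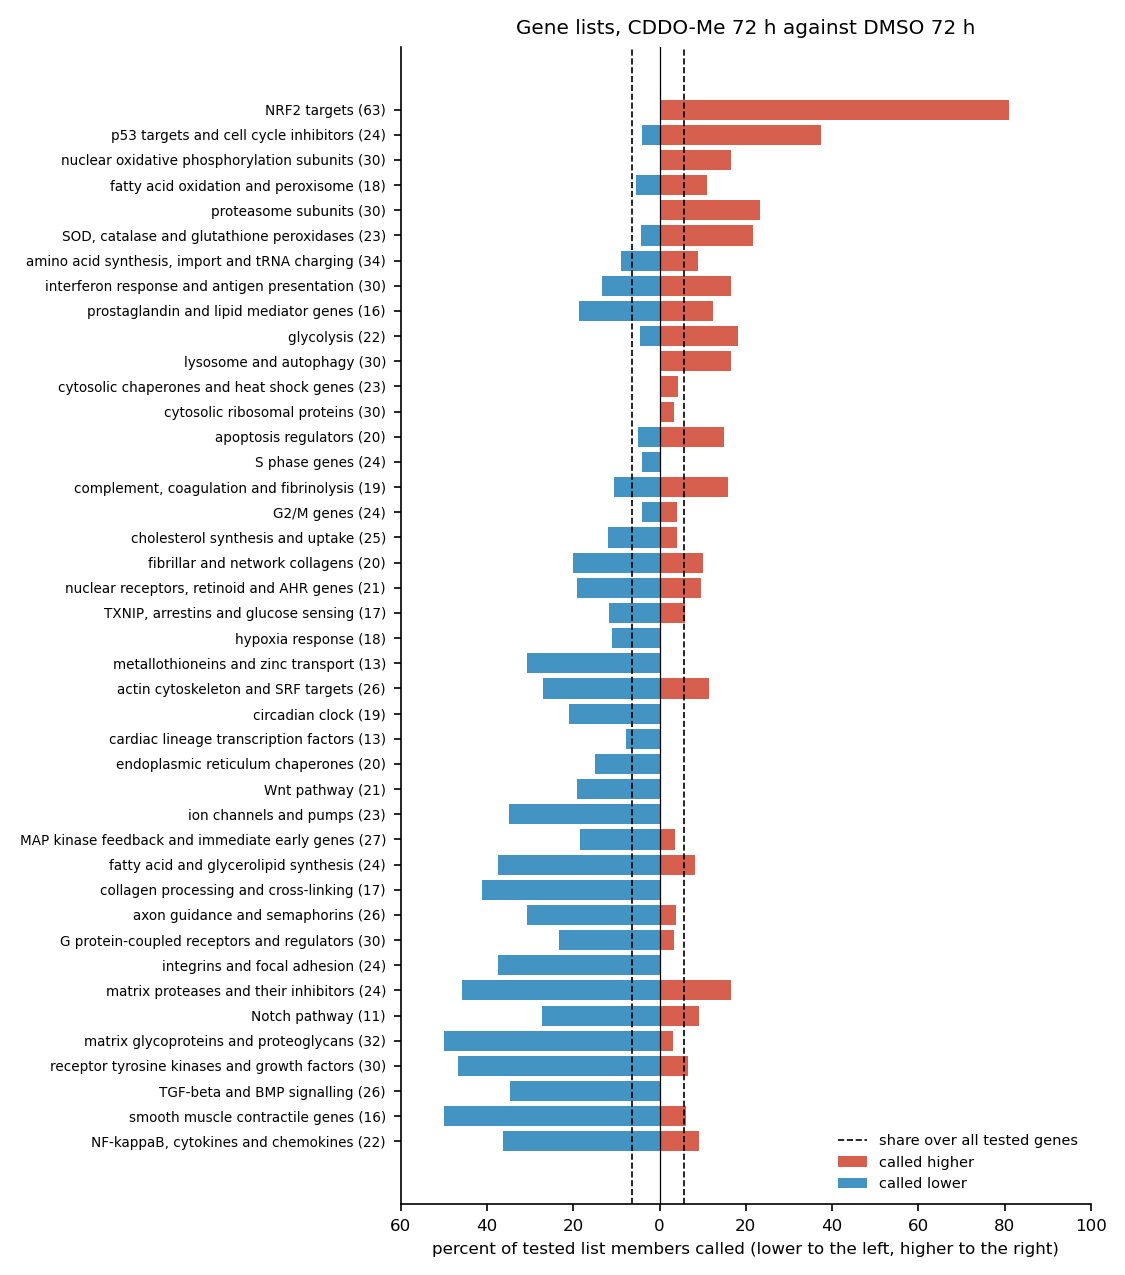
Percent of the tested members of each list shown called lower (blue, to the left) and higher (red, to the right), with the number tested in parentheses; lists are ordered by their median log2 fold change and dashed lines mark the shares over all tested genes (6.47% lower, 5.75% higher). The NRF2 list stands alone at the top with 51 of 63 called higher, and the lists at the bottom, from NF-kappaB to matrix glycoproteins, hold mostly lower calls.

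Calls among genes of the secreted matrix were mainly lower ones, while most collagens did not pass. Of 32 tested matrix glycoproteins and proteoglycans 16 fell and 1 rose (median −0.26), and of 20 collagens 4 fell and 2 rose (median −0.03). POSTN, periostin, which links collagen to other matrix proteins, had 41.8, 36.3 and 46.5 CPM in DMSO and 3.71, 4.59 and 4.03 CPM after CDDO-Me, 10.1-fold lower (log2 −3.34 ± 0.13 SE, adjusted p 4.88e-10). THBS2, thrombospondin 2, had 789, 831 and 756 CPM and then 375, 385 and 377 CPM (2.09-fold lower, adjusted p 1.84e-08). TINAGL1, a basement membrane glycoprotein, fell by 1.92 on the log2 scale, and TGFBI, a TGF-beta-induced adhesion protein, by 1.43. FN1, fibronectin, was the most abundant matrix gene that fell: 9191, 6053 and 6265 CPM became 3909, 3957 and 3842 CPM (log2 −0.88, adjusted p 0.011). DMSO replicate 1 was high for FN1, and replicates 2 and 3 still lay above every treated library. VCAN, versican, and FBN1, fibrillin 1, fell by 0.62 and 0.58. EFEMP1, fibulin 3, was the exception and rose from 37.3, 35.6 and 38.3 CPM to 68.3, 74.7 and 70.5 CPM. Among collagens, COL6A3 fell most (946, 817 and 721 CPM to 383, 389 and 369.7 CPM, adjusted p 7.78e-07), followed by COL6A1 and COL5A1 (−0.49 and −0.42), whose calls were lost with all 9 libraries in the fit (adjusted p 0.156 and 0.423). COL1A1, the chief type I chain, stood at 9628, 9355 and 8117 CPM and 9749, 9515 and 9359.8 CPM with overlapping groups (adjusted p 0.507), and its partner COL1A2 rose by 0.31 (adjusted p 0.00304; 0 collagens were called higher with all 9 libraries in the fit). The count of matrix glycoproteins called lower was 10 and 10 without CDDO-Me replicates 1 and 3 in turn and 8 with all 9 libraries in the fit, and that of collagens was 8 without DMSO replicate 3 and 1 with all 9 libraries in the fit. Without DMSO replicate 1 the balance of collagen calls turned, with 7 higher and 5 lower, and 4 matrix glycoproteins were called higher.

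Of 17 tested genes that cross-link or process collagen 7 fell, 0 rose and 10 did not pass (median −0.18). The lower count was 4 with all 9 libraries in the fit, and 2 were called higher without DMSO replicate 1. TGM2, the transglutaminase that cross-links matrix proteins and a classic retinoic acid target (ENSG00000198959, chromosome 20, 38127387 to 38166578), went from 12.99, 11.8 and 11.3 CPM to 0.626, 0.791 and 1.17 CPM, 13.98-fold lower (log2 −3.81 ± 0.21, adjusted p 2.23e-08). The lysyl oxidases LOX, LOXL2 and LOXL4 fell by 0.71, 0.64 and 1.19 on the log2 scale (adjusted p 4.25e-05, 1.64e-06 and 5.14e-05; LOXL4 adjusted p 0.288 with all 9 libraries in the fit). LOXL2 held 805, 779.5 and 786 CPM in DMSO and 511, 511 and 504 CPM after CDDO-Me, a narrow range within each group. CEMIP, which binds and degrades hyaluronan, fell from 342, 343 and 332 CPM to 75.6, 74.04 and 78.3 CPM (4.46-fold, adjusted p 7.53e-12). In addition, 2 other hyaluronan genes were looked up after their values were seen. HAS2, a hyaluronan synthase, fell by 0.77 (adjusted p 0.062 with all 9 libraries in the fit) and HAPLN1, a hyaluronan link protein, by 1.67.

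Matrix proteases and their inhibitors moved in both directions, 11 of 24 lower and 4 higher (median −0.24). The plasminogen activators both fell: PLAT held 148, 143 and 145 CPM in DMSO and 60.8, 57.1 and 58.5 CPM after CDDO-Me, and PLAU 13.5, 13.7 and 14.9 and 6.21, 4.22 and 5.25 CPM (adjusted p 4.80e-09 and 1.77e-05). TIMP3, an inhibitor of metalloproteases bound to the matrix, fell by 1.16 and MMP2, gelatinase A, by 0.58 (adjusted p 0.383 with all 9 libraries in the fit). SERPINE2, an inhibitor of plasminogen activators and thrombin, rose from 142, 127 and 132 CPM to 244, 244 and 246 CPM. CTSL, the lysosomal protease cathepsin L, rose from 73.8, 49.1 and 64.4 CPM to 135, 138 and 135 CPM (adjusted p 0.000128). MMP14 did not pass (log2 0.03, adjusted p 0.877; adjusted p 0.0152 without DMSO replicate 1). The protease count called lower was 7 and 7 without CDDO-Me replicates 1 and 2 in turn and 7 with all 9 libraries in the fit.

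Of 26 tested genes of TGF-beta and BMP signalling 9 fell and 0 rose (median −0.31), and this count ran from 8 to 11 over the leave-outs. LTBP3 and LTBP1, proteins that hold latent TGF-beta in the matrix, were 4.07-fold and 2.93-fold lower. LTBP3 (ENSG00000168056, chromosome 11, 65538805 to 65558930) had 82.2, 78.3 and 66.6 CPM in DMSO and 19.7, 18.4 and 17.5 CPM after CDDO-Me (adjusted p 4.30e-09), and LTBP1 47.7, 46.1 and 46.9 and 17.4, 16.2 and 14.3 CPM (adjusted p 5.27e-08). TGFB2, a ligand, and INHBA, the activin A subunit, fell by 0.72 and 0.92. The coreceptor ENG (endoglin) fell by 0.92, and SMAD3, the intracellular mediator, from 146, 182 and 170.4 CPM to 87.6, 85.6 and 81.5 CPM (adjusted p 1.34e-06). SKIL, a feedback repressor that TGF-beta induces, fell by 1.05. TGFB1 itself did not pass (173, 119 and 103 CPM and 101, 95.9 and 99.3 CPM, adjusted p 0.22; adjusted p 0.0414 without DMSO replicate 3), and neither did the feedback inhibitor SMAD7 (log2 −0.86, adjusted p 0.122; adjusted p 0.019 and 0.0343 without DMSO replicates 1 and 3 in turn). Without DMSO replicate 1, 5 genes of the list were called higher. The matricellular genes CCN1 and CCN2, often read as targets of YAP and TGF-beta, had log2 fold changes of 0.05 and 0.14 with overlapping groups (adjusted p 0.698 and 0.694).

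Lower calls also outnumbered higher ones among contractile and adhesion genes. Of 16 smooth muscle contractile genes 8 fell and 1 rose (median −0.36). MYOCD, myocardin, the SRF coactivator of smooth and cardiac muscle genes (ENSG00000141052, chromosome 17, 12665890 to 12768949), had 20.2, 15.01 and 12.3 CPM in DMSO and 2.65, 2.21 and 2.76 CPM after CDDO-Me (6.20-fold lower, adjusted p 6.35e-07). SRF itself did not pass (log2 −0.07, adjusted p 0.523). Of the 3 genes whose CArG boxes are printed above, ACTG2, smooth muscle gamma-actin, fell from 58.1, 28.5 and 25.5 CPM to 10.1, 8.86 and 9.50 CPM, a fall whose call needed all treated libraries (log2 −1.97 ± 0.36, adjusted p 0.022; adjusted p 0.0989, 0.114 and 0.104 without CDDO-Me replicates 1, 2 and 3 in turn). MYLK, myosin light chain kinase, fell from 184, 231 and 209 CPM to 130.1, 134 and 129 CPM (adjusted p 4.68e-05). CNN2, calponin 2, fell from 471, 481 and 406 CPM to 342, 334 and 336 CPM (adjusted p 0.000744). The same box was in 3 of the 11 list members with a promoter in the table. CNN1, calponin 1, went the other way, from 35.3, 31.3 and 32.1 CPM to 41.5, 42.6 and 42.8 CPM (adjusted p 0.0078; adjusted p 0.053 without CDDO-Me replicate 3). TAGLN, transgelin, was high in DMSO replicate 1 (363, 207 and 230.4 CPM against 163, 175 and 177 CPM) and did not pass (adjusted p 0.141; adjusted p 0.000374 and 0.0325 without DMSO replicates 1 and 2 in turn). Close actin and calponin copies may share reads. The contractile count called lower was 4, 4 and 5 without CDDO-Me replicates 1, 2 and 3 in turn.

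Of 24 integrin and focal adhesion genes 9 fell and 0 rose (median −0.24), a count that was 4, 4 and 4 without CDDO-Me replicates 1, 2 and 3 in turn and 5 with all 9 libraries in the fit. ITGA5, the alpha chain of the fibronectin receptor, fell from 689, 594 and 563 CPM to 375, 393 and 381 CPM (adjusted p 1.89e-05), and ITGA3, ITGA4 and PXN (paxillin) fell by 0.47, 0.51 and 0.44. Of 26 actin cytoskeleton genes and SRF targets 7 fell and 3 rose; the lower count was 12 without DMSO replicate 3. MYH9, non-muscle myosin IIA, was the most abundant of these and fell from 6181, 6537 and 5409.7 CPM to 4417, 4529 and 4503 CPM (adjusted p 0.000827), while ACTN1, alpha-actinin 1, and FHL2, a LIM protein, fell by 0.47 and 0.73. Among small GTPases, RHOB rose 2.24-fold (83.1, 79.7 and 84.2 CPM to 184, 174 and 195 CPM, adjusted p 2.23e-08) and RHOA did not pass (log2 0.04, adjusted p 0.69).

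**Figure D3:**
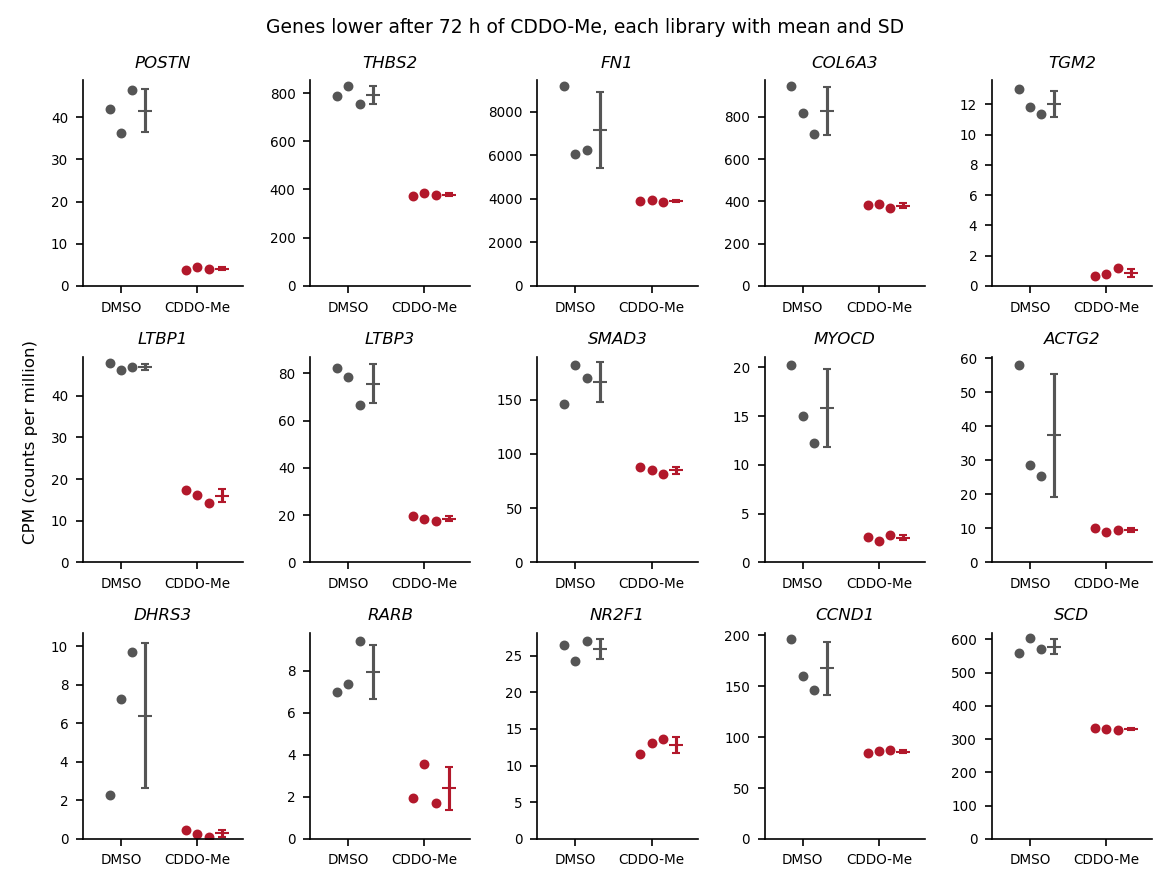
CPM of 15 genes that were lower after CDDO-Me, a panel per gene with its own axis from 0; points are the 3 libraries of each group in replicate order and the bars beside them show mean and SD. Treated libraries lie below every DMSO library in each panel, and those of RARB and DHRS3 differ among themselves by more than a small part of their level. FN1 and ACTG2 show DMSO replicate 1 high (9191 and 58.1 CPM) while DHRS3 shows it low (2.27 CPM).

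In the list of nuclear receptor, retinoid and AHR genes 4 of 21 fell, 2 rose and 15 did not pass (median −0.05). The lower count was 2 without CDDO-Me replicate 2 and 7 without DMSO replicate 1, and the higher count was 1, 1 and 1 without CDDO-Me replicates 1, 2 and 3 in turn, 4 and 4 without DMSO replicates 1 and 3 in turn and 1 with all 9 libraries in the fit. DHRS3, a retinaldehyde reductase that retinoic acid itself induces (ENSG00000162496, chromosome 1, 12567910 to 12617731), went from 2.27, 7.25 and 9.70 CPM to 0.482, 0.264 and 0.106 CPM, 21.7-fold lower by the fit (log2 −4.44 ± 0.71, adjusted p 0.00642; adjusted p 0.0728 without CDDO-Me replicate 2). DMSO replicate 1 was low for it, yet above each treated library. RARB, the receptor gene with the element printed above (ENSG00000077092, chromosome 3, 25174332 to 25597932), held 7.01, 7.40 and 9.41 CPM in DMSO and 1.93, 3.59 and 1.70 CPM after CDDO-Me (log2 −1.73 ± 0.24, adjusted p 0.000302). The RefSeq start behind the printed window lies inside this span, so the count also takes in reads of transcripts that start elsewhere in the gene. The other tested genes with that element, PHF8 and RPS24, were not called (log2 −0.11 and 0.04). TGM2, given above with the collagen processing list, is a further known target of retinoic acid. NR2F1, an orphan nuclear receptor, fell from 26.4, 24.3 and 26.96 CPM to 11.6, 13.1 and 13.6 CPM (adjusted p 1.26e-05). RARA passed with a smaller fall (log2 −0.40, adjusted p 0.0232; adjusted p 0.107, 0.0774 and 0.112 without CDDO-Me replicates 1, 2 and 3 in turn, 0.102 without DMSO replicate 2 and 0.0795 with all 9 libraries in the fit). CRABP2, the carrier of retinoic acid to its receptors, overlapped between groups (11.03, 15.7 and 18.5 CPM and 10.8, 10.6 and 12.7 CPM, adjusted p 0.13; adjusted p 0.0017 without DMSO replicate 1). RARG and RXRA did not pass (adjusted p 0.239 and 0.333; RXRA adjusted p 0.00916 without DMSO replicate 1). CYP1B1, a cytochrome that the AHR induces and that can oxidise retinol, rose from 69.9, 103 and 103 CPM to 169, 184 and 176 CPM (adjusted p 0.00305).

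Growth factors and their receptors were lower in 14 of 30 tested members and higher in 2 (median −0.31). MET, the receptor of hepatocyte growth factor, fell from 330.3, 252 and 235 CPM to 140.1, 139 and 128 CPM (adjusted p 0.000278). The ephrin receptor EPHA2 and the growth factor FGF5 fell by 0.92 and 0.99, PDGFRA by 0.76, and the IGF-binding proteins IGFBP6 and IGFBP5 by 1.04 and 1.53 (adjusted p 0.0973 and 0.0987 with all 9 libraries in the fit). ANGPT1, the agonist of the TIE2 receptor, rose 2.97-fold (14.9, 15.8 and 17.6 CPM to 44.9, 46.2 and 52.9 CPM, adjusted p 9.33e-08), while TEK, which encodes TIE2, fell from 14.1, 11.5 and 11.8 CPM to 7.37, 6.70 and 6.85 CPM. EREG, epiregulin, rose at a low level (0.825, 0.207 and 0.145 CPM to 1.78, 1.63 and 1.70 CPM, adjusted p 0.00907; adjusted p 0.0665 without DMSO replicate 2 and 0.061 with all 9 libraries in the fit). The list's count called lower was 9, 8 and 8 without CDDO-Me replicates 1, 2 and 3 in turn and 9 with all 9 libraries in the fit. Its higher count was 5 and 1 without DMSO replicates 1 and 2 in turn and 1 with all 9 libraries in the fit.

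Guidance and G protein signalling lists also leaned to lower calls. Of 26 axon guidance genes 8 fell and 1 rose. NRP2, a coreceptor of semaphorins and VEGF, fell from 111, 71.3 and 83.7 CPM to 28.6, 29.3 and 25.8 CPM (adjusted p 5.76e-05), and BDNF, a neurotrophin, and ROBO1, the SLIT receptor, fell by 0.77 and 0.50. SEMA3E, a repulsive semaphorin, rose from 1.03, 0.983 and 1.93 CPM to 4.53, 3.80 and 3.87 CPM (adjusted p 0.00117). Of 30 G protein-coupled receptors and regulators 7 fell and 1 rose. GPRC5A and GPRC5B, orphan receptors of the retinoic acid-inducible family, fell 2.92-fold and 5.40-fold. GPRC5A held 340.1, 434 and 415 CPM in DMSO and 142, 138 and 127 CPM after CDDO-Me (adjusted p 3.26e-08), and GPRC5B 35.7, 54.8 and 49.8 and 8.43, 8.49 and 9.07 CPM (adjusted p 1.62e-07). RGS4, which shortens Gq signals, fell by 1.28, and RGS20 rose by 1.21. The guidance count called lower was 3, 3 and 4 without CDDO-Me replicates 1, 2 and 3 in turn, 13 and 5 without DMSO replicates 1 and 2 in turn and 5 with all 9 libraries in the fit, and the G protein count was 4 and 4 without CDDO-Me replicates 2 and 3 in turn. Among Notch genes, NOTCH3 rose from 11.6, 17.8 and 13.02 CPM to 31.7, 31.5 and 29.7 CPM (adjusted p 5.44e-05), and NOTCH2 fell by 0.40, a gene with near copies that may take its reads. PTPRB, an endothelial receptor phosphatase that acts on TIE2, fell from 14.6, 12.7 and 12.1 CPM to 3.42, 2.37 and 2.87 CPM (adjusted p 6.20e-07).

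Calls among inflammatory genes were mainly lower ones, and those among interferon genes were mixed. Of 22 NF-kappaB, cytokine and chemokine genes 8 fell and 2 rose (median −0.46); the lower count ran from 6 to 9 over the leave-outs, and the higher count was 0, 1 and 0 without CDDO-Me replicates 1, 2 and 3 in turn, 0 and 0 without DMSO replicates 2 and 3 in turn and 1 with all 9 libraries in the fit. CCL2, the monocyte chemoattractant, had 8.35, 15.1 and 19.3 CPM in DMSO and 3.61, 3.80 and 3.87 CPM after CDDO-Me (log2 −1.92, adjusted p 0.0016; adjusted p 0.133 with all 9 libraries in the fit). LIF, a cytokine of the IL-6 family, and IL1B, interleukin 1 beta, fell by 1.13 and 1.73 (adjusted p 2.12e-05 and 6.73e-05). CXCL12, the CXCR4 ligand, fell from 370.2, 412 and 425 CPM to 271, 256 and 269 CPM (adjusted p 2.07e-05; adjusted p 0.311 with all 9 libraries in the fit). The inhibitor gene NFKBIA did not pass (log2 −0.37, adjusted p 0.0776; adjusted p 0.0441 without DMSO replicate 3). Of 30 interferon response and antigen presentation genes 5 rose and 4 fell. OASL, an interferon-induced antiviral protein, fell 7.01-fold (9.33, 9.73 and 9.07 CPM to 1.40, 1.05 and 1.54 CPM, adjusted p 1.88e-07). The higher count of the list was 1, 2 and 1 without CDDO-Me replicates 1, 2 and 3 in turn, 8, 3 and 8 without DMSO replicates 1, 2 and 3 in turn and 0 with all 9 libraries in the fit. Its lower count was 2, 2 and 1 without CDDO-Me replicates 1, 2 and 3 in turn. Of 19 genes of complement, coagulation and fibrinolysis 3 rose and 2 fell (median 0.01), and the lower count was 5 without DMSO replicate 1 and 1 with all 9 libraries in the fit. TFPI2, an inhibitor of serine proteases, fell from 12.6, 9.16 and 10.3 CPM to 4.43, 3.06 and 3.34 CPM (adjusted p 4.78e-05). C1S, a complement protease, rose from 18.1, 22.98 and 27.5 CPM to 58.5, 54.4 and 53.97 CPM, and CLU, clusterin, a secreted chaperone that restrains complement, from 35.1, 32.7 and 43.7 CPM to 117, 117 and 114 CPM (adjusted p 9.71e-06 and 3.26e-08).

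Of 24 fatty acid and glycerolipid synthesis genes 9 fell and 2 rose (median −0.18), a lower count that was 5 and 5 without CDDO-Me replicates 1 and 3 in turn and 4 with all 9 libraries in the fit. SCD, the stearoyl-CoA desaturase (ENSG00000099194, chromosome 10, 100347124 to 100364834), held 559, 605 and 571 CPM in DMSO and 334, 329 and 328 CPM after CDDO-Me (log2 −0.81 ± 0.06, adjusted p 2.60e-07; adjusted p 0.331 with all 9 libraries in the fit). FASN, fatty acid synthase, held 825, 924 and 733 CPM and 533, 530.3 and 523 CPM (adjusted p 4.50e-05; adjusted p 0.198 with all 9 libraries in the fit). The higher count was 1 without CDDO-Me replicate 2, 4 without DMSO replicate 1 and 1 with all 9 libraries in the fit. The elongase ELOVL6 fell by 0.53. SREBF1, the regulator of this pathway, varied within DMSO (82.1, 144 and 130.2 CPM) and stood at 55.6, 58.9 and 56.4 CPM after CDDO-Me (adjusted p 0.0222; adjusted p 0.0953, 0.09 and 0.0859 without CDDO-Me replicates 1, 2 and 3 in turn and 0.381 with all 9 libraries in the fit). FADS3, a desaturase-like enzyme, rose from 93.2, 64.4 and 76.02 CPM to 142, 139 and 139 CPM. CPT1A, which admits fatty acids to mitochondria, rose from 14.9, 11.6 and 11.3 CPM to 20.4, 21.7 and 23.9 CPM (adjusted p 0.000561; adjusted p 0.0686 with all 9 libraries in the fit). Of 25 cholesterol genes 3 fell, 1 rose and 21 did not pass (16% called, against 12.2% of all tested genes, median −0.03). The lower count was 1 with all 9 libraries in the fit, and the higher count was 0 and 0 without CDDO-Me replicates 1 and 2 in turn, 4 without DMSO replicate 1 and 0 with all 9 libraries in the fit. ENPP2, autotaxin, the secreted enzyme that makes lysophosphatidic acid, rose 4.67-fold (ENSG00000136960, chromosome 8, 119557086 to 119673453). It held 34.5, 38.9 and 46.9 CPM in DMSO and 189, 189 and 183 CPM after CDDO-Me (log2 2.22 ± 0.09, adjusted p 1.16e-09), while LPAR1, a receptor of that lipid, fell by 0.35.

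Other metabolic lists moved by small amounts. Of 22 glycolysis genes 4 rose and 1 fell; the higher count was 1, 2 and 2 without CDDO-Me replicates 1, 2 and 3 in turn and 1 with all 9 libraries in the fit. The member that fell was LDHA, lactate dehydrogenase A (866, 1013 and 1099 CPM to 750.0, 739 and 755 CPM, adjusted p 0.00252), and GAPDH rose by 0.28 (adjusted p 0.00466; adjusted p 0.0535 without CDDO-Me replicate 1 and 0.0588 with all 9 libraries in the fit). Of 30 nuclear genes of oxidative phosphorylation 5 rose and 0 fell (median 0.14), with COX5B, a subunit of cytochrome oxidase, at 76.7, 81.7 and 80.4 CPM and 106, 97.2 and 103 CPM (adjusted p 0.00215). Of 30 proteasome subunits 7 rose and 0 fell (median 0.11). PSME1, an activator subunit, rose from 45.4, 47.1 and 51.2 CPM to 61.2, 62.9 and 62.7 CPM (adjusted p 0.00334). The proteasome count was 2, 3 and 1 without CDDO-Me replicates 1, 2 and 3 in turn, 4 and 11 without DMSO replicates 2 and 3 in turn and 2 with all 9 libraries in the fit, and the oxidative phosphorylation count was 3, 3 and 2 without CDDO-Me replicates 1, 2 and 3 in turn and 8, 3 and 10 without DMSO replicates 1, 2 and 3 in turn. Of 30 lysosome and autophagy genes 5 rose and 0 fell, led by GLA, alpha-galactosidase A (56.2, 47.98 and 55.1 CPM to 82.9, 84.6 and 82.1 CPM, adjusted p 4.63e-05); that count was 2, 3 and 2 without CDDO-Me replicates 1, 2 and 3 in turn, 8 without DMSO replicate 1 and 2 with all 9 libraries in the fit. SOD1, cytosolic superoxide dismutase, rose by 0.42 (adjusted p 0.000983), 1 of 5 risers in its list of 23, a count that was 3 and 2 without CDDO-Me replicates 1 and 3 in turn and 3 with all 9 libraries in the fit. Among amino acid transporters SLC7A5, which imports large neutral amino acids, fell from 1156, 1183 and 1009 CPM to 772, 811 and 757 CPM (adjusted p 0.000123). HSPA5 (BiP) and CALR (calreticulin), chaperones of the endoplasmic reticulum, fell by 0.40 and 0.34 (adjusted p 0.061 and 0.0843 with all 9 libraries in the fit). In their list of 20, 3 fell and 0 rose (15% called, against 12.2% of all tested genes). The lower count of that list was 5 and 6 without DMSO replicates 1 and 2 in turn and 0 with all 9 libraries in the fit. ALAS1, the first enzyme of heme synthesis, rose from 51.9, 53.3 and 57.01 CPM to 111, 116 and 114 CPM (adjusted p 7.40e-08).

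With all 6 libraries of the comparison, cell cycle genes gave calls at no more than the share over all tested genes (12.2%). Of 24 S phase genes 0 rose and 1 fell (4.17% called), and of 24 G2/M genes 1 rose and 1 fell (8.33%). Their medians were 0.02 and −0.01. Leaving out 1 library gave 0 to 3 higher and 0 to 1 lower calls for S phase, and 0 to 2 in either direction for G2/M. The most came without DMSO replicate 3, with 3 higher and 1 lower for S phase and 2 higher and 2 lower for G2/M. MKI67, the proliferation marker, held 605, 601 and 539.7 CPM in DMSO and 512, 572 and 509 CPM after CDDO-Me, and its groups overlapped (adjusted p 0.227). Of 24 p53 targets and cell cycle inhibitors 9 rose, 1 fell and 14 did not pass (median 0.22). CDKN1A, the inhibitor p21, rose from 167, 153 and 145 CPM to 240.0, 253 and 256 CPM (adjusted p 6.76e-06). GADD45A, a stress sensor, and TP53I3, a quinone reductase homologue, rose by 0.51 and 0.74. CCND1, cyclin D1, was the member that fell, from 197, 159.6 and 147 CPM to 84.2, 85.9 and 86.9 CPM (1.96-fold, adjusted p 1.04e-05). The count of the list called higher was 4, 5 and 3 without CDDO-Me replicates 1, 2 and 3 in turn, 5 without DMSO replicate 2 and 4 with all 9 libraries in the fit. MYC did not pass (log2 −0.20, adjusted p 0.721), with DMSO replicate 1 low at 76.2 CPM; it passed without that library (adjusted p 6.18e-06 without DMSO replicate 1).

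**Figure D4:**
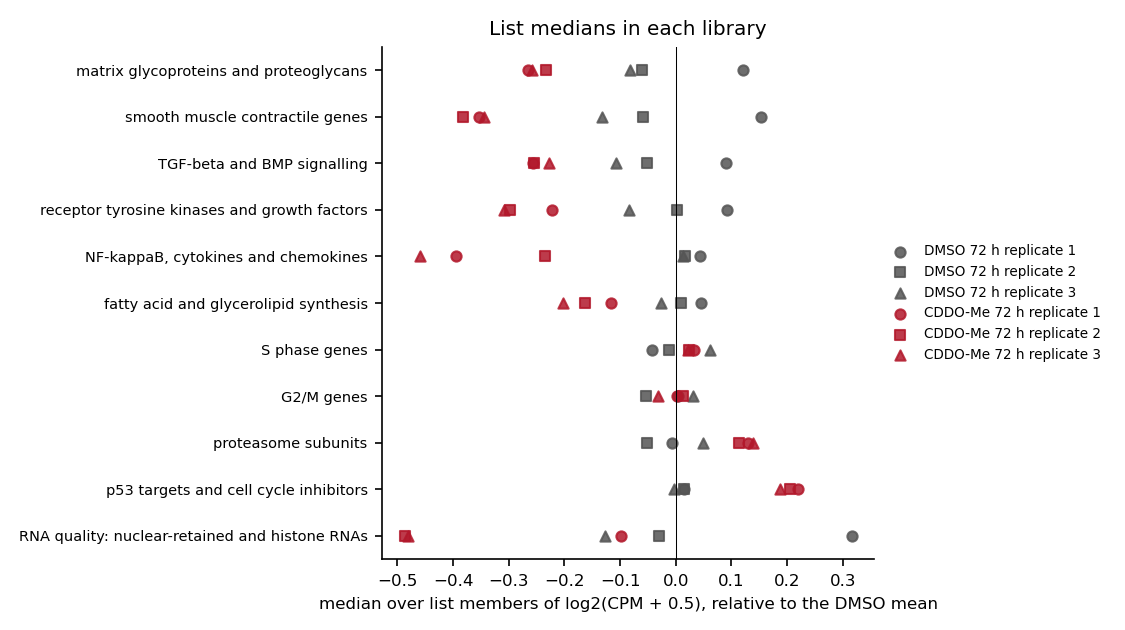
Median over list members of log2(CPM + 0.5) relative to the DMSO mean, a point per library for 11 lists, with grey for DMSO, red for CDDO-Me and the marker shape for the replicate number. Treated libraries lie left of all DMSO libraries for the first 6 lists, and both groups sit near 0 for S phase and G2/M genes. DMSO replicate 1 (grey circle) is the rightmost point in each of the first 6 lists and in the RNA quality list.

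Among genes called higher outside the NRF2 list, the naming rule took the 12 protein-coding genes with the largest rise, at an average log2 CPM of at least 3 and with groups apart. The highest was ZNF469, a zinc finger gene tied to corneal collagen (ENSG00000225614, chromosome 16, 88427471 to 88440757). It held 10.3, 16.7 and 9.12 CPM in DMSO and 57.8, 59.7 and 57.5 CPM after CDDO-Me (4.86-fold, log2 2.28 ± 0.18, adjusted p 4.25e-05). GPC1, glypican 1, a heparan sulfate proteoglycan that binds growth factors (ENSG00000063660, chromosome 2, 240435671 to 240468078), was the most abundant of the 12 highest and rose from 197, 161 and 162 CPM to 586, 592 and 586 CPM (adjusted p 1.51e-09). SEL1L3 rose from 40.1, 25.8 and 30.4 CPM to 128, 137 and 135 CPM and PANX2, a pannexin channel protein, from 4.33, 4.35 and 3.57 CPM to 16.7, 15.6 and 13.7 CPM. Each treated library lay at more than the highest DMSO value for these genes, which the rule required and which is therefore no separate result. KCNE4, which inhibits voltage-gated potassium channels, rose 2.71-fold, POPDC3, a Popeye domain membrane protein, 2.81-fold and MAP2, a microtubule-binding protein of neurons, 3.17-fold. HLX, a homeobox factor, rose from 7.84, 7.87 and 6.37 CPM to 18.98, 16.98 and 22.5 CPM (adjusted p 9.46e-06; adjusted p 0.0501 with all 9 libraries in the fit). The last of the 12 was MSC, musculin, a bHLH repressor whose DMSO values of 9.54, 4.40 and 4.15 CPM include a high replicate 1 (17.4, 17.3 and 14.96 CPM after CDDO-Me, adjusted p 0.0116; adjusted p 0.0559 and 0.0506 without CDDO-Me replicates 1 and 2 in turn). MSC-AS1 overlaps that gene, and the library kit does not keep the strand, so their reads cannot be told apart.

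At lower levels, genes chosen after their values were seen showed rises from low DMSO levels. HTRA3, a secreted serine protease (ENSG00000170801, chromosome 4, 8269765 to 8307111), held 0.876, 1.19 and 1.21 CPM in DMSO and 11.2, 10.97 and 10.2 CPM after CDDO-Me (log2 3.30 ± 0.18, adjusted p 3.11e-08). SPP1, osteopontin, held 1.75, 1.55 and 1.59 CPM and 13.1, 10.6 and 12.6 CPM (adjusted p 4.74e-08). KYNU, kynureninase of tryptophan breakdown, held 0.206, 0.311 and 0.241 CPM and 1.59, 2.53 and 2.60 CPM (adjusted p 9.73e-05). All 3 were called in every alternative analysis that tested them. LINC00942, a long noncoding RNA, rose from 2.11, 1.24 and 1.88 CPM to 10.1, 11.5 and 10.2 CPM. FBXW10, an F-box gene (ENSG00000171931, chromosome 17, 18744024 to 18779349), had 0 reads in each DMSO library and 17, 26 and 22 reads after CDDO-Me, at least 22.1-fold higher against a floor of 3 reads over the DMSO group. It lies beside TRIM16L (chromosome 17, 18697998 to 18736118), an NRF2 target that went from 20.2, 22.4 and 23.6 CPM to 270.0, 282 and 268 CPM, and the part of this neighbour in the FBXW10 reads was not tested. KITLG, the ligand of the KIT receptor, and UCHL1, a ubiquitin hydrolase, were more abundant and each rose 2.14-fold.

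**Figure D5:**
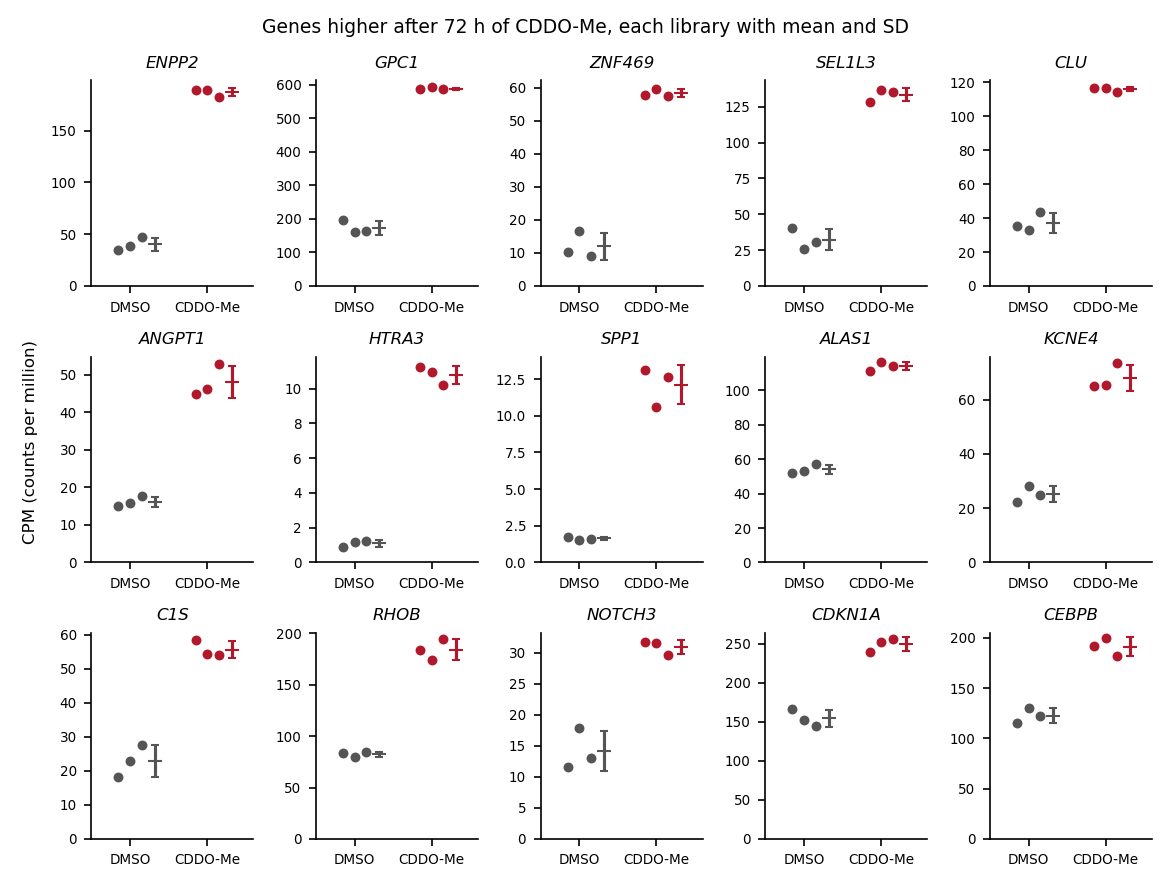
CPM of 15 genes that were higher after CDDO-Me, a panel per gene with its own axis from 0; points are the 3 libraries of each group in replicate order and the bars beside them show mean and SD. The groups do not overlap in any panel, which was required of the genes that the naming rule took as highest. GPC1 moves from 161 to 197 CPM in DMSO to 586 to 592 CPM after CDDO-Me.

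Metallothioneins, clock genes and long noncoding RNAs gave smaller sets. MT2A, whose 7 metal response element cores are printed above, fell from 538, 414 and 413 CPM to 147, 147 and 150.2 CPM (3.07-fold, adjusted p 1.35e-07), and MT1E fell from 29.95, 32.8 and 34.2 CPM to 17.6, 19.5 and 19.95 CPM. Metallothionein genes are close copies and may share reads. Of 13 metallothionein and zinc transport genes 4 fell and 0 rose, a count that was 2, 2 and 2 without CDDO-Me replicates 1, 2 and 3 in turn and 2 with all 9 libraries in the fit. Of 19 clock genes 4 fell and 0 rose (2 and 2 without CDDO-Me replicates 2 and 3 in turn, 2 without DMSO replicate 2 and 2 with all 9 libraries in the fit), led by BHLHE40, a repressor of the clock (18.8, 21.5 and 20.9 CPM to 9.30, 10.1 and 11.1 CPM, adjusted p 3.31e-05), and NPAS2, an activator that pairs with ARNTL, fell by 0.62. MIR100HG, the host of the miR-100 cluster, fell most of the long noncoding RNAs that the rule names (19.5, 16.04 and 17.9 CPM to 9.54, 11.8 and 9.87 CPM, adjusted p 0.000734). GATA6, a heart lineage factor, fell from 45.3, 49.8 and 49.2 CPM to 29.2, 28.95 and 29.6 CPM (adjusted p 2.64e-05). It was the 1 called gene among 13 tested cardiac transcription factors (7.69%, against 12.2% of all tested genes). In that list 2 fell without DMSO replicate 3 and 1 rose without DMSO replicate 1.

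Marker lists describe which cell programmes these libraries held. Of 16 defining cardiomyocyte markers, 15 were under 1 CPM in all 6 libraries and 8 had no read in any, among them MYH6, MYH7 and RYR2. TTN was the 1 that could be tested, at 5.62, 6.68 and 6.08 CPM and 7.27, 5.59 and 5.15 CPM. The defining contractile genes of heart muscle were therefore at or near 0 in both groups, apart from TTN. All 11 fibroblast markers were tested, with 4 lower and 1 higher. The lower count was 3, 3 and 3 without CDDO-Me replicates 1, 2 and 3 in turn and 3 without DMSO replicate 2. With all 9 libraries in the fit it was 3, and the higher count was 0. The summed level of the 11 markers ran from 15122 to 16391 CPM in DMSO and from 17165 to 17675 CPM after CDDO-Me. COL1A1, COL1A2, COL3A1 and VIM carried most of this sum, while TCF21 held 0.69 to 1.91 CPM over the 6 libraries. FAP, fibroblast activation protein, fell from 46.8, 50.3 and 60.6 CPM to 22.7, 21.1 and 20.8 CPM (adjusted p 1.04e-06), and VIM, vimentin, had overlapping groups (log2 −0.02, adjusted p 0.856). Of 9 epithelial markers 6 were tested and 4 fell, all keratins, with summed levels of 237 to 275 CPM in DMSO and 132 to 140.3 CPM after CDDO-Me. The lower count was 3, 3 and 3 without CDDO-Me replicates 1, 2 and 3 in turn. It was 3 and 3 without DMSO replicates 2 and 3 in turn and 3 with all 9 libraries in the fit. CLDN4 was not called, and its treated libraries (1.54, 1.74 and 1.70 CPM) lay above those of DMSO (0.876, 1.24 and 1.01 CPM). KRT18 fell from 173, 205 and 198 CPM to 97.1, 98.1 and 91.6 CPM and KRT19 from 20.6, 19.1 and 23.2 CPM to 7.32, 7.70 and 7.38 CPM (adjusted p 3.30e-07 and 8.64e-07). These keratins have processed pseudogenes that may share their reads. Leukocyte markers summed to 1.75 to 3.52 CPM and endothelial markers to 11.3 to 19.6 CPM over the 6 libraries.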

How the data were processed

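RNA was measured by polyadenylated RNA-seq with a kit that does not keep strand, per the labels' protocols. The authors deposited whole-number read counts per Ensembl gene without normalization; the tools listed in the submitters' processing notes are STAR, SAMtools and Subread's featureCounts, on hg38 (GRCh38), with versions not given there. Settings for strand and multimapping: not given in the sources used here. Reads of near-identical or overlapping genes may be split or lost.

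The 6 libraries of the comparison were fitted with edgeR 4.0.16 in R 4.3.3 (TMM, filterByExpr, robust quasi-likelihood test, Benjamini-Hochberg over 14534 genes, adjusted p under 0.05), without the 24 h libraries, because one of those stands apart from its group. Each SE was taken as the absolute fold change (log2) divided by the root of F. Tested genes held 99.86% to 99.89% of counts. A count of 0 allows up to 3 reads, for counting error only. On simulated counts for this comparison (14339 genes), the test found 100% of the 2-fold rises and 94% of the 1.5-fold rises, with 12 false of 205 calls. The simulation gave both groups the same spread and changed only genes with an average log2 CPM of at least 3. It therefore gives no such rates for the unequal spreads of the real groups or for genes at lower levels.

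Members, lists and rules were chosen with earlier results of these data known. The rule names the 12 protein-coding genes with the highest and the 12 with the lowest fold change outside the NRF2 list (called, average log2 CPM of at least 3, groups apart), the 3 highest and 3 lowest lncRNAs, and up to 4 called members per list in its main direction plus 1 in the other. ALAS1, CCN1, CCN2, COL1A1, CRABP2, CTSL, ENG, EREG, FBN1, FBXW10, FN1, HAPLN1, HAS2, HTRA3, IGFBP5, INHBA, KITLG, KYNU, LINC00942, MET, MKI67, MMP14, MYC, NFKBIA, RARG, RHOA, RXRA, SMAD7, SPP1, SREBF1, SRF, TAGLN, TGFB1, TGFB2, TGFBI, TXNIP, UCHL1 and VIM were named after their values were seen. A few results are not reported here. Alternatives were other normalizations, filters and tools (DESeq2 1.42.0, limma 3.58.1), all 9 libraries, a replicate block and leaving out each library.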

Additional observations from a re-analysis of the deposited data

How the results depend on the processing

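Of 16 alternatives, none reversed a gene named here that was called. With all 9 libraries in the fit, 432 genes were called higher and 469 lower. limma-voom with sample weights called 1450 lower, and its higher count moved by less than 1.5 times. Leaving out 1 library gave 410 to 1383 genes called higher and 461 to 1423 lower; the fewest came without a CDDO-Me library and the most without DMSO replicate 1, and the cause was not tested. The 2-fold counts stayed within 1.5 times in every alternative. Same-numbered samples had correlations of 0.04, 0.02 and 0.03 between their deviations from the group means. These were small, though every sample correlated best with its own number. Whether replicate numbers pair the samples was not settled. With the replicate number as a block, 937 genes were called higher and 1058 lower. FN1, ACTG2 and SREBF1 lost their calls without the filter on low counts. The biological coefficient of variation was 11.4% within DMSO and 3.04% within CDDO-Me, with 3 libraries each. Genes near 1 CPM rest on about 20 reads per library.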

Other observations

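Of 23 ion channel and pump genes 8 fell and 0 rose (median −0.16), a count that was 3, 3 and 4 without CDDO-Me replicates 1, 2 and 3 in turn and 4 with all 9 libraries in the fit. CLIC4, a chloride intracellular channel protein, stood at 894, 898 and 884 CPM in DMSO and 657, 663 and 671 CPM after CDDO-Me (edgeR adjusted p 7.57e-05), and KCNMA1, the large-conductance potassium channel, fell by 0.55. RASGRP3, an exchange factor for RAS, fell from 17.7, 16.8 and 20.4 CPM to 8.67, 9.02 and 7.59 CPM (edgeR adjusted p 2.85e-05). Of 27 MAP kinase feedback and immediate early genes 5 fell and 1 rose, a lower count that was 2, 2 and 1 without CDDO-Me replicates 1, 2 and 3 in turn, 10 and 1 without DMSO replicates 1 and 2 in turn and 1 with all 9 libraries in the fit. The riser was DUSP5, an ERK phosphatase (46.8, 70.3 and 73.2 CPM to 131, 132 and 119 CPM, edgeR adjusted p 0.00405).

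Of 18 hypoxia response genes 2 fell and 0 rose (11.1% called, against 12.2% of all tested genes). The lower count was 1 and 1 without CDDO-Me replicates 2 and 3 in turn, 8 without DMSO replicate 1 and 1 with all 9 libraries in the fit. ADM, adrenomedullin, a vasodilator peptide, fell from 196, 178 and 189 CPM to 131, 126 and 130.4 CPM (edgeR adjusted p 3.54e-05). Of 23 cytosolic chaperone genes 1 rose and 0 fell (4.35% called), and of 30 ribosomal protein genes 1 rose and 0 fell (3.33%). Both shares were below the 12.2% over all tested genes. Without DMSO replicate 1 these lists held 5 and 3 higher calls, and without DMSO replicate 3 they held 5 and 4. TXNIP, an inhibitor of thioredoxin, held 56.6, 87.8 and 109 CPM and 50.6, 51.9 and 44.7 CPM with groups apart and did not pass in edgeR (adjusted p 0.0934); it passed in DESeq2 and in limma-voom, and in edgeR in other sets of libraries (adjusted p 9.98e-08 without DMSO replicate 1 and 0.0458 with all 9 libraries in the fit). KLF2, a factor of vessel quiescence, rose from 21.8, 25.2 and 28.3 CPM to 41.3, 44.2 and 44.1 CPM (edgeR adjusted p 9.89e-05).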
